A study of Mus musculus with 12 samples.

Results

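The proteasome is the protease that degrades most ubiquitin-tagged proteins in a cell. Its 20S core is a stack of rings. The outer rings of alpha subunits (Psma genes) gate the chamber, and the inner rings of beta subunits (Psmb genes) line it, with Psmb5, Psmb6 and Psmb7 carrying the cutting sites. The 19S cap recognises ubiquitin, unfolds the substrate and threads it into the core. It has a base of ATPases (Psmc genes) with the scaffolds Psmd1 and Psmd2, and a lid of further Psmd subunits. After interferon signals, and constitutively in many leukocytes, Psmb8, Psmb9 and Psmb10 replace the catalytic beta subunits and form the immunoproteasome, which favours peptides for MHC class I. Activators (Psme genes) open the core without the cap, and chaperones (Psmg genes, Psmd5, Psmd9 and Psmd10) build the particle. In muscle that wastes during cancer cachexia, the wasting of muscle and fat in tumour bearers, this pathway is known for degrading contractile proteins.

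Members were the genes whose symbol starts with Psma, Psmb, Psmc, Psmd, Psme, Psmf or Psmg and a number, 49 of 20194 in the RNA table. Of these, 48 had a mean of at least 1 FPKM (reads per kilobase of exon, scaled to library depth) and were tested with 12981 genes in all. Psma8, an alpha subunit of the testis, had a mean of 0.197 FPKM and was not tested. By textbook role, 47 members fell into classes, Psma8 included. The other two were Psmc3ip, a protein of meiotic recombination that the name rule takes in, and Psme2b, a near-copy of Psme2 with which it may share reads. In the chromatin data 72 of 38244 peaks were annotated to 43 members, 41 of them within 1000 bp of the annotated start at 40 members (called promoter peaks here) and 31 farther away. All 72 passed the filter of a mean of at least 5 tags, as did 37358 peaks in all.

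PolyA RNA came from muscle of C57BL/6 mice in 2 groups of 3 libraries. LLC mice received 500000 Lewis lung carcinoma cells, a mouse lung tumour line, under the skin, and PBS mice received PBS; tissue was collected on day 22. Open chromatin was measured by ATAC-seq, in which the Tn5 transposase cuts accessible DNA, in C2C12 cells, mouse myoblasts able to fuse into myotubes. It was measured in 3 libraries after 24 hours in medium conditioned by C26 cells, a mouse colon carcinoma line, and in 3 libraries in control medium. The labels name neither the muscle nor the age of the mice, give the cultured cells as myoblasts where the titles say myotubes, and do not state that libraries of a group were separate animals or cultures. A p-value here thus rests on the spread among these libraries, and that spread may be technical. No deposited measure links the animals to the cultures, so the results of the assays stand side by side and were not compared.

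RNA depth was 17.3 to 20.1 M tags in LLC and 17 to 18.9 M in PBS libraries, and ATAC depth was 12.8 to 18.2 M tags after C26 medium and 10.1 to 14.8 M in control medium. The 6 skeletal muscle markers, among them Acta1 and Ckm, summed to 37147 to 42929 FPKM in LLC and 32335 to 38372 FPKM in PBS libraries. Markers of other tissues varied as well. The 7 neutrophil and marrow markers summed to 5858, 10337 and 181 FPKM in LLC 1 to 3, against 122, 6179 and 11728 FPKM in PBS 1 to 3, so LLC 3 and PBS 1 stood far below the rest. The 5 epidermis markers summed to 1139, 49.4 and 463 FPKM in LLC libraries, against 0.452, 4.87 and 80.2 FPKM in PBS libraries, with 4 of 5 at 0 in PBS 1; their part in the results was not tested. Class medians without PBS 1 are given with the classes. In bulk tissue, fewer cells of a type and less RNA per cell cannot be told apart.

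In LLC muscle nearly every subunit of the core and the cap stood slightly above PBS muscle over all 6 libraries, while the immunoproteasome, the activators and the assembly chaperones lay on both sides of 0. Without PBS 1, 23 of the 31 core and cap genes were above 0, with a median of 0.08, and 2 of the 15 genes of the other 3 classes. Of all genes 40.4% were above 0 without PBS 1, and 41.9% without PBS 1 and LLC 3. Counts above 0 without these libraries, here and below, are to be read against those shares. Of the 31 core and cap genes 30 had a limma log2 difference (LLC minus PBS, on log2(FPKM + 1)) above 0, with a median of 0.15, against 53.0% and a median of 0.01 over all genes tested. The exception was Psmd14, the deubiquitinase of the lid, at -0.02. With median-of-ratios scaling 29 of the 31 were above 0, with a median of 0.12, against 47.5% and -0.01 over all genes. Psmd13 of the lid was then also below 0, at -0.02. Over all 48 members tested 37 were above 0 with a median of 0.10. No member passed a Benjamini-Hochberg adjusted p of 0.05 in limma, as no gene did (background 0.0%). At an unadjusted limma p under 0.05 there were 4 of 48 members (Psmd1, Psmd2, Psmd7 and Psmd11), against 991 genes or 7.63% of all. With median-of-ratios scaling it was 1 member, Psmd7, against 7.12% of genes. With edgeR it was 2 of 48 members, against 932 of 12981 genes. edgeR on the recovered reads called no gene either, and DESeq2 called 2.4% of genes, with 1 member among them, Psmd7.

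**Figure D1:**
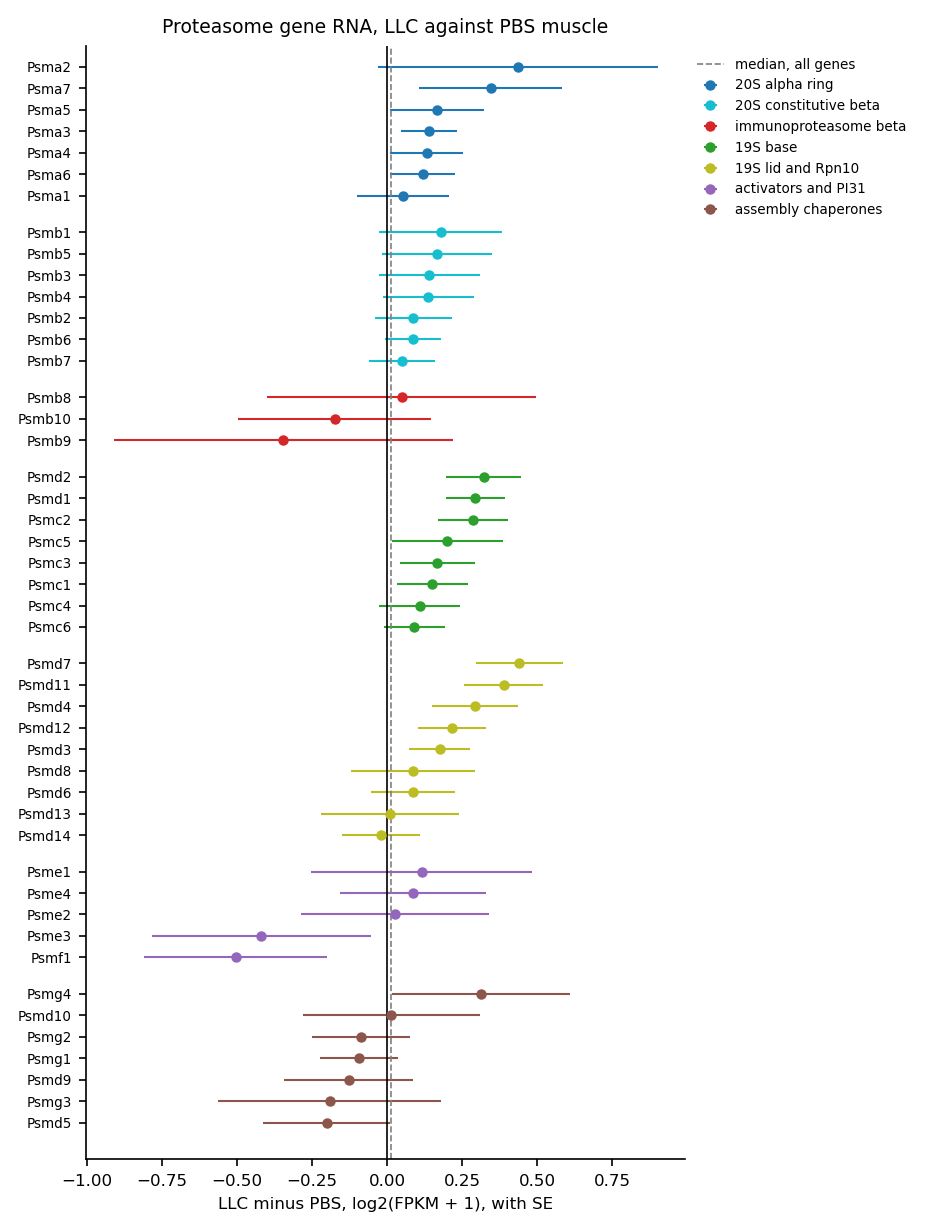
Limma log2 difference in RNA, LLC minus PBS muscle (x axis, log2(FPKM + 1), bars are SE, 3 libraries per group), for the 46 members with a class that were tested, sorted within each class. Core and cap points lie right of 0 except Psmd14, while the immunoproteasome, activator and chaperone points lie on both sides with wider bars; the dashed line is the median of all genes.

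The cap had the members with the smallest p. Psmd7, a scaffold of the lid that pairs with Psmd14, had 83.6, 102 and 95.2 FPKM in LLC 1 to 3, against 58.8, 74.1 and 73.3 FPKM in PBS 1 to 3. All LLC libraries lay above all PBS libraries. Its log2 difference was 0.44 (SE 0.14, limma adjusted p = 0.530), and DESeq2 gave it an adjusted p of 0.0202. Psmd7 lies on the minus strand of chromosome 8 from 107580380 to 107588482 (mm10). Psmd11, the lid subunit that clamps cap and core together, had 45.7, 49.3 and 59.2 FPKM in LLC libraries, against 41.3, 38.0 and 37.1 FPKM in PBS libraries. These groups did not overlap, and the log2 difference was 0.39 (SE 0.13, limma adjusted p = 0.550). Psmd4, a ubiquitin receptor between base and lid also called Rpn10, had 94.5, 113 and 102 FPKM in LLC libraries, against 71.7, 89.1 and 92.2 FPKM in PBS libraries, again without overlap. The 9 genes of the lid with Rpn10 had a median log2 difference of 0.17, with 8 above 0.

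The base showed the same small shift. Psmd1, a scaffold that holds the ATPase ring, had 45.1, 46.6 and 50.6 FPKM in LLC 1 to 3, against 39.6, 38.1 and 37.7 FPKM in PBS 1 to 3 (log2 difference 0.29, SE 0.10, limma adjusted p = 0.548). Psmd2, the scaffold where ubiquitin-carrying shuttle proteins dock, had 86.0, 107 and 103 FPKM in LLC libraries, against 78.3, 82.2 and 75.0 FPKM in PBS libraries. Psmc2, one of the ATPases, had 77.1, 86.1 and 86.0 FPKM in LLC libraries, against 61.5, 70.2 and 72.5 FPKM in PBS libraries. In all of them the lowest LLC library exceeded the highest PBS library. The 8 base genes were all above 0 with a median of 0.18. Members whose LLC libraries all lay above all PBS libraries numbered 10 of 48 (20.8%), against a background of 9.5% of genes, and those with all LLC libraries below all PBS libraries numbered 0, against 3.94% of genes. Of the 10, 8 were among the 17 cap genes (Psmd1, Psmd2, Psmd3, Psmd4, Psmd7, Psmd11, Psmd12 and Psmc2) and 2 among the 14 core genes (Psma3 and Psmb6). With median-of-ratios scaling 7 of 48 members lay wholly above (14.6%), against 7.09% of genes, and 1, Psmg1, wholly below, against 5.35%. Of those 7, 5 were cap genes (Psmc2, Psmc3, Psmc4, Psmd4 and Psmd7) and 2 core genes (Psma4 and Psma7), so Psmc2, Psmd4 and Psmd7 were separated under both scalings. The difference between cap and core was not tested.

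Of the core genes, Psma7, an alpha subunit, had 95.6, 112 and 89.1 FPKM in LLC 1 to 3, against 54.7, 87.6 and 96.0 FPKM in PBS 1 to 3. Its log2 difference was 0.35 (SE 0.24), and 0.10 without PBS 1, the lowest library. Psma3 had 38.1, 41.1 and 40.0 FPKM in LLC libraries, against 36.5, 36.1 and 35.3 FPKM in PBS libraries, a narrow but complete separation. Psma6 had 99.2, 105 and 102 FPKM in LLC libraries, against 86.8, 94.0 and 102 FPKM in PBS libraries, with overlap. Psma2, singled out after its values were seen, had the largest SE of the core genes (log2 difference 0.43, SE 0.47), with 71.2, 81.0 and 65.3 FPKM in LLC libraries, against 24.6, 71.6 and 84.5 FPKM in PBS libraries; without PBS 1 its sign turned, to -0.11. Among the beta subunits Psmb7, which carries the trypsin-like site and had the highest mean of all members at 152.5 FPKM, had 149, 157 and 160 FPKM in LLC libraries, against 163, 146 and 140 FPKM in PBS libraries. Its groups overlapped, with a log2 difference of 0.05 (SE 0.11). Psmb4, a structural subunit, had 122, 143 and 126 FPKM in LLC libraries, against 99.5, 123 and 134 FPKM in PBS libraries, also with overlap. The median log2 difference was 0.14 in each core class, and all 14 core genes were above 0. Without PBS 1, 9 of 14 were above 0, and 11 without PBS 1 and LLC 3.

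Summed over genes, the 17 cap genes reached 1187, 1356 and 1290 FPKM in LLC 1 to 3, against 1079, 1128 and 1143 FPKM in PBS 1 to 3. That is 1278 ± 85.2 FPKM in LLC and 1117 ± 33.2 FPKM in PBS libraries (SD, n = 3 each), without overlap. With median-of-ratios scaling the cap sums were 1169, 1293 and 1321 in LLC libraries, against 1274, 1050 and 1074 in PBS libraries, and the groups overlapped. The 14 core genes summed to 1211, 1327 and 1206 FPKM in LLC libraries, against 966, 1175 and 1272 FPKM in PBS libraries, and these groups overlapped. The cap sum as a percentage of the core sum was 98.0, 102 and 107% in LLC libraries, against 112, 96.0 and 89.8% in PBS libraries. PBS 1 had the highest and PBS 3 the lowest of these percentages, with all LLC libraries between them.

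**Figure D2:**
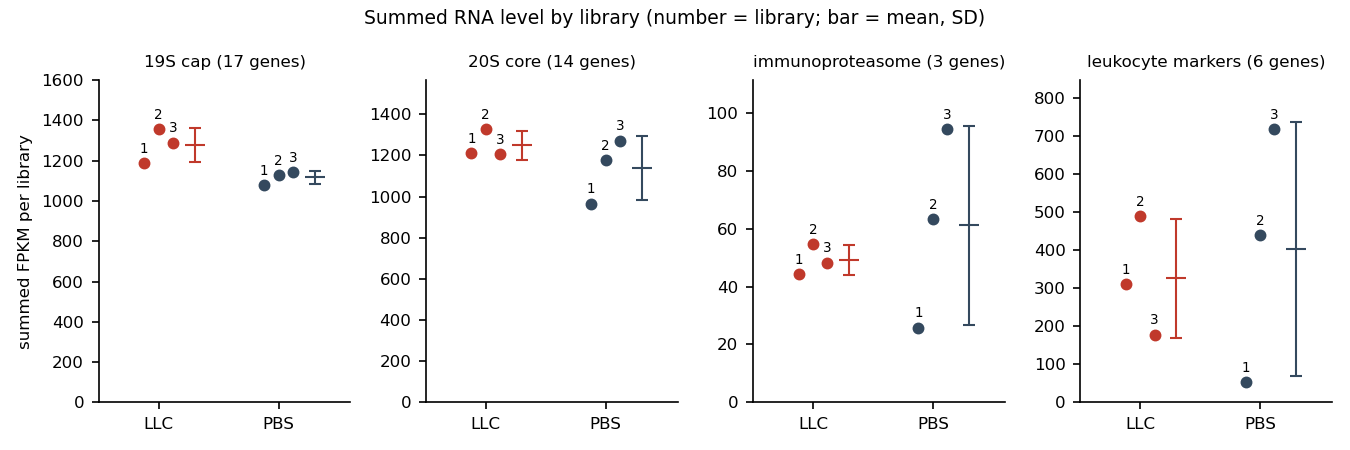
Summed FPKM per library (y axis) of the 17 cap genes, the 14 core genes, the 3 immunoproteasome genes and the 6 leukocyte markers, with LLC left and PBS right; numbers mark libraries and bars give mean and SD. The cap sums of LLC, 1187 to 1356 FPKM, lie above those of PBS, 1079 to 1143 FPKM, in these deposited values but not with median-of-ratios scaling, whereas the other panels overlap and PBS 1 is lowest in each.

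Without PBS 1 the median of all genes was -0.07, that of the alpha ring 0.05, of the constitutive beta subunits 0.02, of the base 0.11 and of the lid with Rpn10 0.19. Then 25 of 48 members were above 0, against 40.4% of all genes. Without both PBS 1 and LLC 3 the all-gene median was -0.05, and the base and lid medians were 0.11 and 0.19. Then 28 members were above 0, against 41.9% of all genes. The skeletal muscle markers themselves had a median log2 difference of 0.16 with 6 of 6 above 0. The 5 endothelial markers had a median of 0.87 with 4 of 5 above 0, and summed to 176, 190 and 216 FPKM in LLC 1 to 3, against 98.0, 100.54 and 83.7 FPKM in PBS 1 to 3. The summed tendon markers were lower in every LLC library than in any PBS library: the 4 markers summed to 49.8, 13.6 and 4.25 FPKM in LLC 1 to 3, against 102, 106 and 74.7 FPKM in PBS 1 to 3, with none at 0 in any library. The part of these markers in the core and cap values was not tested.

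The immunoproteasome genes had lower levels than the core genes and varied mainly among PBS libraries. Psmb8, which replaces Psmb5 and lies on chromosome 17 from 34198195 to 34201454 (mm10), had 19.7, 25.1 and 22.7 FPKM in LLC 1 to 3, against 10.2, 26.7 and 36.3 FPKM in PBS 1 to 3. Psmb9, which replaces Psmb6 and lies on the same chromosome from 34182099 to 34187330, had 12.5, 15.2 and 11.4 FPKM in LLC libraries, against 6.41, 20.05 and 34.6 FPKM in PBS libraries. Psmb10, which replaces Psmb7 and lies on chromosome 8 from 105935728 to 105938392, had 12.1, 14.3 and 14.1 FPKM in LLC libraries, against 9.22, 16.5 and 23.4 FPKM in PBS libraries. For each gene PBS 1 was the lowest and PBS 3 the highest of the 6 libraries, and all LLC libraries lay between PBS 1 and PBS 2. The log2 differences were 0.05 (SE 0.45), -0.35 (SE 0.56) and -0.17 (SE 0.32) in that order, and none passed.

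The partners they replace varied less. Psmb5, the chymotrypsin-like subunit, had 99.6, 110 and 95.7 FPKM in LLC 1 to 3, against 70.2, 98.5 and 107 FPKM in PBS 1 to 3. Psmb6, the caspase-like subunit, had 96.1, 97.9 and 92.9 FPKM in LLC libraries, against 88.7, 89.6 and 91.5 FPKM in PBS libraries, a narrow separation. Psmb8 amounted to 19.8, 22.9 and 23.7% of Psmb5 in LLC libraries, against 14.6, 27.1 and 34.0% in PBS libraries. Psmb9 was at 13.0, 15.5 and 12.3% of Psmb6 in LLC libraries, against 7.23, 22.4 and 37.8% in PBS libraries. Psmb10 was at 8.12, 9.13 and 8.85% of Psmb7 in LLC libraries, against 5.66, 11.2 and 16.7% in PBS libraries. The LLC libraries stayed within a narrow band inside the PBS range in each of these ratios.

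**Figure D3:**
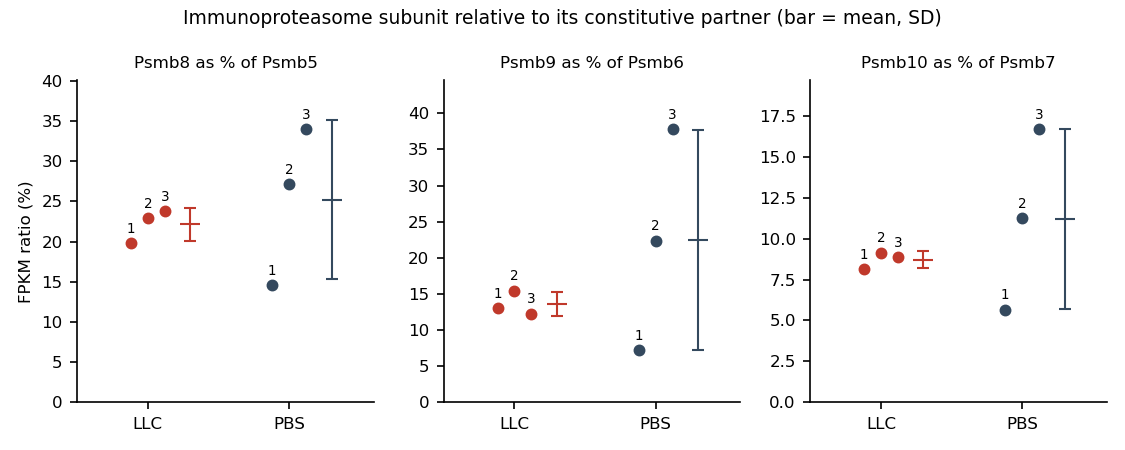
FPKM of each immunoproteasome subunit as a percentage of the constitutive subunit it replaces (y axis), by library, LLC left and PBS right, with mean and SD. In each panel the 3 LLC libraries lie between PBS 1 and PBS 2, and PBS 3 is highest, at 34.0, 37.8 and 16.7%.

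Between groups the 3 log2 ratios differed by -0.12, -0.43 and -0.23 (LLC minus PBS), with exact two-sided permutation p-values of 0.8, 0.6 and 0.7 over the 6 libraries and an adjusted p of 0.8 for each. The smallest p that 3 against 3 libraries allow is 0.1. Without PBS 3 the differences were 0.12, 0.06 and 0.11, so their direction rested on that library. The leukocyte markers moved in the same library order as the immunoproteasome genes within PBS. They summed to 311, 490 and 179 FPKM in LLC 1 to 3, against 52.4, 439 and 719 FPKM in PBS 1 to 3. Of the 6 markers 0 were at 0 in any library. In limma 4 of 6 were above 0, with a median of 0.28. Without PBS 1 it was 0 of 6 with a median of -0.92, and without PBS 1 and LLC 3 it was 0 of 6 with -0.54. With edgeR and DESeq2 it was also 0 of 6, with medians of -0.23 and -0.25. Erythroid markers summed to 59.1, 234 and 34.0 FPKM in LLC libraries, against 16.2, 417 and 722 FPKM in PBS libraries. Their part in the immunoproteasome values was not tested. The immunoproteasome median was -0.51 without PBS 1 and -0.55 without PBS 1 and LLC 3, with 0 of 3 genes above 0 in both.

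The activators and the inhibitor had a median log2 difference of 0.03 with 3 of 5 above 0; with median-of-ratios scaling the median was -0.0036 with 2 of 5 above 0. These values rested on PBS 1: without it the median was -0.31 and Psme4 alone was above 0, and without PBS 1 and LLC 3 the median was -0.21. Psme3, the nuclear activator PA28 gamma, had 28.6, 37.0 and 24.1 FPKM in LLC 1 to 3, against 23.3, 44.5 and 59.6 FPKM in PBS 1 to 3. Psmf1, which encodes the proteasome-binding protein PI31, had 5.45, 7.93 and 5.50 FPKM in LLC libraries, against 5.97, 9.29 and 13.9 FPKM in PBS libraries, with the lowest p of this class (log2 difference -0.50, SE 0.31, limma adjusted p = 0.907). Psme4, the activator PA200, ran the other way within PBS, with 38.8, 43.1 and 53.5 FPKM in LLC libraries, against 57.1, 40.8 and 31.8 FPKM in PBS libraries. All 3 pairs of groups overlapped. Psme1 and Psme2, the interferon-inducible PA28 pair, had log2 differences of 0.12 (SE 0.37) and 0.03 (SE 0.31). Without PBS 1 both signs turned, to -0.28 and -0.31, while Psme3 was at -0.79 and Psmf1 at -0.78.

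The 7 assembly chaperones had low levels, with means of 8.2 to 18.6 FPKM, and a median log2 difference of -0.09 with 2 above 0. Without PBS 1 the median was -0.30 and Psmg4 alone was above 0, at 0.04; without PBS 1 and LLC 3 the median was -0.25. Psmg4, which helps to order the alpha ring, had 12.5, 14.5 and 8.83 FPKM in LLC 1 to 3, against 6.02, 10.5 and 12.3 FPKM in PBS 1 to 3. Psmd5, a chaperone of the base, had 13.0, 15.2 and 11.3 FPKM in LLC libraries, against 11.6, 15.5 and 19.4 FPKM in PBS libraries. Psmg1, a partner of Psmg2 in building the alpha ring, had 9.69, 10.5 and 8.60 FPKM in LLC libraries, against 9.04, 10.8 and 11.1 FPKM in PBS libraries. The groups overlapped for each, and none of the class had an unadjusted limma p under 0.05. The member with the lowest mean among those tested was Psmc3ip at 2.91 FPKM.

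Genes that feed or tune the proteasome gave a mixed picture. Ubb, a polyubiquitin gene, had 401, 502 and 398 FPKM in LLC 1 to 3, against 134, 413 and 495 FPKM in PBS 1 to 3. PBS 1 was far below the rest and the groups overlapped. Its log2 difference was 0.51 (SE 0.50), and -0.07 without PBS 1. Uba1, the main E1 enzyme, differed by -0.07 (SE 0.10).

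The NRF1 axis controls proteasome gene transcription: the protease Ddi2 cleaves the factor NRF1 (Nfe2l1), which then binds antioxidant response elements together with small MAF proteins, while Bach1 competes for such elements. Of its 9 tested genes 8 were above 0, with a median of 0.20, and 3 had an unadjusted limma p under 0.05, where 53.0% and 7.63% of all genes did so. With median-of-ratios scaling 7 were above 0 and 2 had such a p, against 47.5% and 7.12% of all genes. Without PBS 1 the median was 0.12, and without PBS 1 and LLC 3 it was 0.08, each with 7 of 9 above 0. Of all genes 40.4% and 41.9% were above 0 in these settings. The genes given by library or difference below had the smallest limma p of this list, and Nfe2l1 was not among them. DESeq2 called 2 of the 9, Maff (adjusted p = 0.000185) and Bach1 (adjusted p = 0.00747), against 2.4% of genes. Maff, a small MAF protein, had 2.87, 3.37 and 4.54 FPKM in LLC 1 to 3, against 1.13, 1.20 and 1.30 FPKM in PBS 1 to 3 (log2 difference 1.04, SE 0.17, limma adjusted p = 0.175). Ddi2 had 16.97, 19.7 and 25.7 FPKM in LLC libraries, against 14.8, 13.8 and 12.6 FPKM in PBS libraries (log2 difference 0.55, SE 0.17, limma adjusted p = 0.506). Bach1 had 7.96, 8.65 and 8.40 FPKM in LLC libraries, against 5.38, 6.93 and 6.39 FPKM in PBS libraries (log2 difference 0.37, SE 0.12, limma adjusted p = 0.531). In all of them every LLC library exceeded every PBS library. Keap1, the adaptor that keeps NRF2 low, differed by 0.25 (SE 0.15), with overlap.

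Proteasome partners, 23 genes with 15 above 0 and a median of 0.09, were led by Zfand5, a muscle-expressed protein that binds and stimulates the proteasome. It had 49.9, 60.1 and 71.3 FPKM in LLC 1 to 3, against 52.0, 41.7 and 33.4 FPKM in PBS 1 to 3, with LLC 1 under PBS 1 (log2 difference 0.51, SE 0.21, limma adjusted p = 0.668). Adrm1, a ubiquitin receptor of the cap also called Rpn13, had 50.02, 61.4 and 55.7 FPKM in LLC libraries, against 45.5, 49.1 and 47.9 FPKM in PBS libraries. Its groups did not overlap, and neither did those of Nsfl1c, a cofactor of the unfoldase p97, which differed by 0.20 (SE 0.10). Fbxo7, a ubiquitin ligase subunit that binds PI31, had 7.00, 9.25 and 5.43 FPKM in LLC libraries, against 5.97, 14.3 and 18.1 FPKM in PBS libraries. Of 13 genes of MHC class I and interferon response, which use immunoproteasome products or drive their genes, 6 were above 0 with a median of -0.07. B2m, the light chain of MHC class I, had 407, 456 and 460 FPKM in LLC libraries, against 396, 618 and 860 FPKM in PBS libraries. Tap1, the peptide transporter that shares a start region with Psmb9, had 10.1, 10.1 and 11.2 FPKM in LLC libraries, against 6.82, 14.7 and 21.5 FPKM in PBS libraries. Canx, a chaperone of class I assembly, and Irf1, an interferon-responsive factor, differed by -0.15 (SE 0.22) and 0.15 (SE 0.23). These genes had the same order of libraries within PBS as the immunoproteasome, PBS 1 lowest and PBS 3 highest, in all 4 named here. Without PBS 1, 1 of the 13 was above 0, with a median of -0.32, against 40.4% of all genes.

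The chromatin of C2C12 cells was examined first at the sequence of the promoters. A window from 250 bases before to 50 bases after the start was held in the RefSeq table (GRCm38.p6) for 40 members. Sequences of 5 are printed. Psmc6, Psmd8 and Psmb6, from base, lid and core, had promoter peaks that were lower after C26 medium in the scaled values given next. Psmb9 shares its start region with Tap1, and Psme1 had the 1 promoter peak that was higher. Psmc6 is on the plus strand at chr14:45329574-45329873, Psmd8 on the minus strand at chr7:29180624-29180923, Psmb6 on the plus strand at chr11:70525107-70525406, Psmb9 on the minus strand at chr17:34187281-34187580 and Psme1 on the plus strand at chr14:55578244-55578543. Each reads 5′ to 3′ along the gene. Capitals mark TGANNNNGC, a loose form of the antioxidant response element core, on either strand in Psmc6, Psmd8, Psmb6 and Psmb9. In Psme1 they mark the interferon-stimulated response element core, found on the reverse strand. All 5 printed windows hold a marked match and do not stand for the other members. Of the other promoters called lower in the scaled values, Psma1, Psma2 and Psmc4 have windows without TGANNNNGC. The windows of Psmd5, Psmd12, Psme2, Psmg1 and Psmg4 hold it, and Psmb7 and Psmd3 had no window.
Psmc6: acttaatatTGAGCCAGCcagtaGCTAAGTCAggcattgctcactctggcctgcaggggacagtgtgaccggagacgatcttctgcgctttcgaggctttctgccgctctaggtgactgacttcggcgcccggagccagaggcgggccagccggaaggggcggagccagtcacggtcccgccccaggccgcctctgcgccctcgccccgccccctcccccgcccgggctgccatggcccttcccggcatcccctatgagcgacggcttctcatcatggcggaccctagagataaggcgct
Psmd8: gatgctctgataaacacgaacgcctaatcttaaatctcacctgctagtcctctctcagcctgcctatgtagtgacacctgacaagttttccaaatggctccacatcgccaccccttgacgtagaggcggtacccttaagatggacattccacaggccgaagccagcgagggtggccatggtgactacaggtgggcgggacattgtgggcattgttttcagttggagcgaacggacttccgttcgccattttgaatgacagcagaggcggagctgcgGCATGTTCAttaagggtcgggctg
Psmb6: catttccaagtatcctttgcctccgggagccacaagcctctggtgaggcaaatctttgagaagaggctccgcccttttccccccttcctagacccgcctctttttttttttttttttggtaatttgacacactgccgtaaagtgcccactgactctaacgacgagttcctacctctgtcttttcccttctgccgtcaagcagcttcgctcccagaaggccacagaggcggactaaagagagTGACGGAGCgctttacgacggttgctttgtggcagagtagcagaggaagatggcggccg
Psmb9: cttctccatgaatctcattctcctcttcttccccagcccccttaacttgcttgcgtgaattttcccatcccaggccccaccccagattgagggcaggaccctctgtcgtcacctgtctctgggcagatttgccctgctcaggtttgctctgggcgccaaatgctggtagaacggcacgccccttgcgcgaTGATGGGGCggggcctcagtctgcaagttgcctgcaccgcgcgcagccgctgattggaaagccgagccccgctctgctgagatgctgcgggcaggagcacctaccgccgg
Psme1: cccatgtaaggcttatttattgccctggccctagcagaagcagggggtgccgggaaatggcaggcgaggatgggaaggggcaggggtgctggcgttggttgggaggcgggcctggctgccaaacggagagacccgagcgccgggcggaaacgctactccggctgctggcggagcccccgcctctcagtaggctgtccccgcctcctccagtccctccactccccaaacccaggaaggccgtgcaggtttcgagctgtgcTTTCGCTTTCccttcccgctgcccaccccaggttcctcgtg

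The loose form TGANNNNGC, searched on both strands, was present in 57.5% of the 40 member windows, 23 of them, and in 43.0% of 14824 RefSeq windows of the same length. It was in 4 of 7 alpha ring, 4 of 4 constitutive beta, 2 of 3 immunoproteasome, 3 of 6 base, 3 of 7 lid, 2 of 5 activator and 4 of 6 chaperone windows. The interferon-stimulated response element core, searched on both strands, was in 12.5% of member windows (Psmb3, Psmd4, Psmd9, Psme1 and Psmg4) and in 3.11% of all windows. The CCAAT box was in 27.5% of member and 37.8% of all windows, and the nuclear respiratory factor 1 core TGCGCA in 15% of member and 11.5% of all windows. GTAAACA, a forkhead box O element, was in 0 of 40 member windows and 2.79% of all windows. The median GC content was 59.0% in members and 58.7% in all genes. TGANNNNGC is short, loose and common. A match is a description of the letters only and need not be an antioxidant response element. Of the 40 members with a window, 7 start head to head with another gene that has a window, within 1000 bp: Psma2 with Mrpl32, Psma7 with Ss18l1, Psmb9 with Tap1, Psmc5 with Ftsj3, Psmd10 with Atg4a, Psmd13 with Sirt3 and Psme2 with Rnf31.

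How member peaks compared after C26 medium depended on the scaling. The deposited tag values of each peak assume 10 M tags in every library. The share of read ends that fell in peaks was 13.0, 12.0 and 13.5% in C26 medium 1 to 3, against 27.0, 13.1 and 17.9% in control medium 1 to 3. The median peak had 50.9 tags in control 1 and 22.9 to 32.1 tags in the other libraries. As deposited, the median limma log2 difference (C26 minus control medium, on log2(tags + 1)) was -0.54 over all peaks, -0.69 over all promoter peaks and -0.77 over the 41 member promoter peaks, of which 0 lay above 0. No member peak passed an adjusted p of 0.05, against 0.0464% of all promoter peaks called higher and 0.965% called lower. Of the other peaks 1.59% were called higher and 2.26% lower, with 0 of 31 members. At an unadjusted limma p under 0.05 there were 23 of the 41 member promoter peaks, against 42.3% of all promoter peaks, and 8 of the 31 others, against 24.4%. All C26 libraries lay below all control libraries at 27 of 41 member promoters (65.9%), against 52.1% of all promoter peaks. Without control 2, 37 of the 41 member promoter peaks were called lower, and 19856 peaks of any kind, promoter or not. Without control 1, 3 member promoter peaks were called lower, and 2611 peaks of any kind. The share over all promoter peaks is not given without either library, so these counts cannot be set against a like background.

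With median-of-ratios scaling, which sets the typical peak to the same level in each library, the median over all peaks was -0.02, and promoters as a whole were still lower, at -0.16. Values from here on use this scaling, which was an alternative to the deposited one. Of the 41 member promoter peaks 13 were lower and 1 higher at a limma adjusted p under 0.05, 31.7% and 2.44%, against 21.2% lower and 2.51% higher of all promoter peaks. The member median was -0.25, with 4 of 41 above 0. All C26 libraries lay below all control libraries at 17 of them (41.5%), against 31.3% of all promoter peaks. Calls were spread over the classes: 2 of 6 genes in the alpha ring, 2 of 7 constitutive beta, 2 of 6 base, 3 of 8 lid, 1 of 5 activator and 3 of 6 chaperone promoters were lower. The class medians were -0.18, -0.33, -0.27, -0.27, -0.07 and -0.34 in that order. The 41 peaks had a median of 39.0, 39.4 and 35.7 tags in C26 medium 1 to 3, against 41.3, 40.4 and 45.9 tags in control medium 1 to 3. edgeR on recovered reads called 12 member promoter peaks lower (29.3%) and 1 higher (2.44%), against 21.6% and 2.69% of all promoter peaks. DESeq2 called 6 lower (14.6%) and 0 higher, against 11.4% and 1.49% of all promoter peaks.

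**Figure D4:**
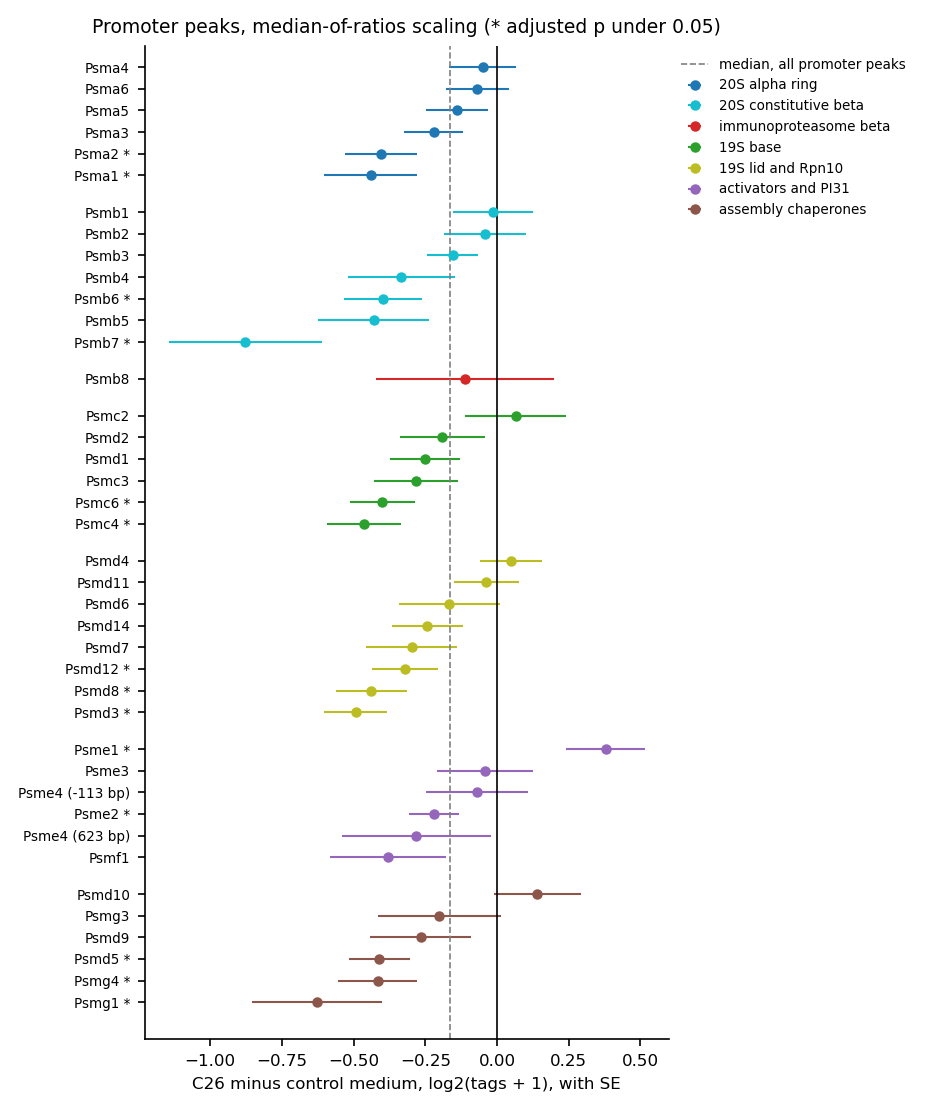
Limma log2 difference of member promoter peaks, C26 minus control medium (x axis, log2(tags + 1) with median-of-ratios scaling, bars are SE, 3 libraries per group), by class; both promoter peaks of Psme4 are shown. Most points lie left of 0 around the dashed median of all promoter peaks, with Psmb7 lowest at -0.88 and Psme1 highest at 0.38.

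Psmb7 had the smallest peak of the core promoters called and the largest difference. At chr2:38643683-38644225 (mm10) it had 6.49, 11.5 and 12.0 tags in C26 medium 1 to 3, against 22.3, 16.2 and 17.8 tags in control medium 1 to 3 (log2 difference -0.88, SE 0.27, limma adjusted p = 0.0102). The groups did not overlap, and as deposited the adjusted p was 0.0522. Psmd3, a lid subunit, had 69.6, 56.2 and 58.3 tags in C26 libraries, against 78.4, 96.6 and 84.9 tags in control libraries (-0.49, SE 0.11, limma adjusted p = 0.000431). Psmd8, another lid subunit whose window is printed above, had 49.2, 52.2 and 38.5 tags in C26 libraries, against 61.1, 66.9 and 61.1 tags in control libraries (-0.44, SE 0.12, limma adjusted p = 0.00512). Psmc4 and Psmc6 are ATPases of the base. Psmc4 had 33.9, 44.7 and 44.1 tags in C26 libraries, against 58.6, 53.1 and 57.3 tags in control libraries (-0.46, SE 0.13, limma adjusted p = 0.00481). Psmc6 had 63.6, 48.6 and 60.7 tags in C26 libraries, against 77.7, 75.7 and 74.3 tags in control libraries (-0.40, SE 0.11, limma adjusted p = 0.00514). In each of these genes every C26 library lay below every control library.

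Among the chaperones Psmd5 had 65.0, 56.6 and 67.2 promoter tags in C26 medium 1 to 3, against 79.1, 84.0 and 88.3 tags in control medium 1 to 3 (-0.41, SE 0.11, limma adjusted p = 0.00241). Psmg1 had 16.7, 11.1 and 16.3 tags in C26 libraries, against 24.2, 18.2 and 27.2 tags in control libraries (-0.63, SE 0.23, limma adjusted p = 0.0306). Both were without overlap. The other promoters called lower were Psma1, Psma2, Psmb6, Psmd12, Psme2 and Psmg4, with log2 differences of -0.44 to -0.22. Psme2 was the highest member promoter and the one of the 13 whose groups overlapped, with 191, 167 and 166 tags in C26 libraries, against 190, 198 and 222 tags in control libraries. Psme1, its partner in PA28, had 45.0, 53.5 and 44.7 tags in C26 libraries, against 41.1, 31.7 and 36.9 tags in control libraries, a difference of 0.38 (SE 0.14, limma adjusted p = 0.0324; DESeq2 0.139). Its call was lost without C26 2, control 2 or control 3.

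Of the immunoproteasome genes, Psmb8 had a promoter peak and Psmb9 and Psmb10 had none annotated to them. The Psmb8 peak, at -601 bp from the start, was small, with 9.28, 9.29 and 9.56 tags in C26 medium 1 to 3, against 9.89, 7.14 and 14.9 tags in control medium 1 to 3 (-0.11, SE 0.31, limma adjusted p = 0.822). The start of Psmb9 lies in a peak that carries the name of Tap1, with 64.0, 66.3 and 60.4 tags in C26 libraries, against 66.0, 65.0 and 70.5 tags in control libraries (-0.08, SE 0.11, limma adjusted p = 0.626). Psmb10 had a peak in an exon 1115 bp past its start, with 17.6, 12.4 and 16.0 tags in C26 libraries, against 26.7, 18.6 and 22.1 tags in control libraries (-0.52, SE 0.22, limma adjusted p = 0.0703). The shared starts of Psma7 with Ss18l1 and of Psmc5 with Ftsj3 were lower, at -0.47 (limma adjusted p = 0.000933) and -0.34 (limma adjusted p = 0.0218), and that of Psmd13 with Sirt3 was at -0.29 (limma adjusted p = 0.0617). A peak at a shared start cannot be given to either gene. Among the 13 promoters called lower this also holds for Psma2 (with Mrpl32) and Psme2 (with Rnf31). Shared starts were sought only at members with a window, so Psmb7 and Psmd3 of those 13 were not checked.

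Away from promoters, peaks as a whole were called higher more often than lower with this scaling. Of the 31 other member peaks 7 were higher and 1 lower, 22.6% and 3.23%, against 23% higher and 9.26% lower of all such peaks. The median was -0.04 against 0.09. The share of members called higher was thus near that of all such peaks. Among the members the largest difference was 17150 bp past the start of Psmd7 and beyond the end of the gene, at chr8:107571020-107571645 in intergenic DNA. It had 65.9, 71.6 and 60.7 tags in C26 medium 1 to 3, against 23.7, 17.4 and 28.5 tags in control medium 1 to 3 (1.49, SE 0.15, limma adjusted p = 2.38e-11). All C26 libraries exceeded all control libraries. The deposited values were 55.4, 56.2 and 54.1 tags in C26 libraries, against 42.9, 14.8 and 33.1 tags in control libraries, also without overlap, but with a log2 difference of 0.97 and a limma adjusted p of 0.108. The promoter peak of Psmd7 itself had 28.8, 27.0 and 29.3 tags in C26 libraries, against 36.4, 31.7 and 37.4 tags in control libraries (-0.30, SE 0.16, limma adjusted p = 0.149).

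**Figure D5:**
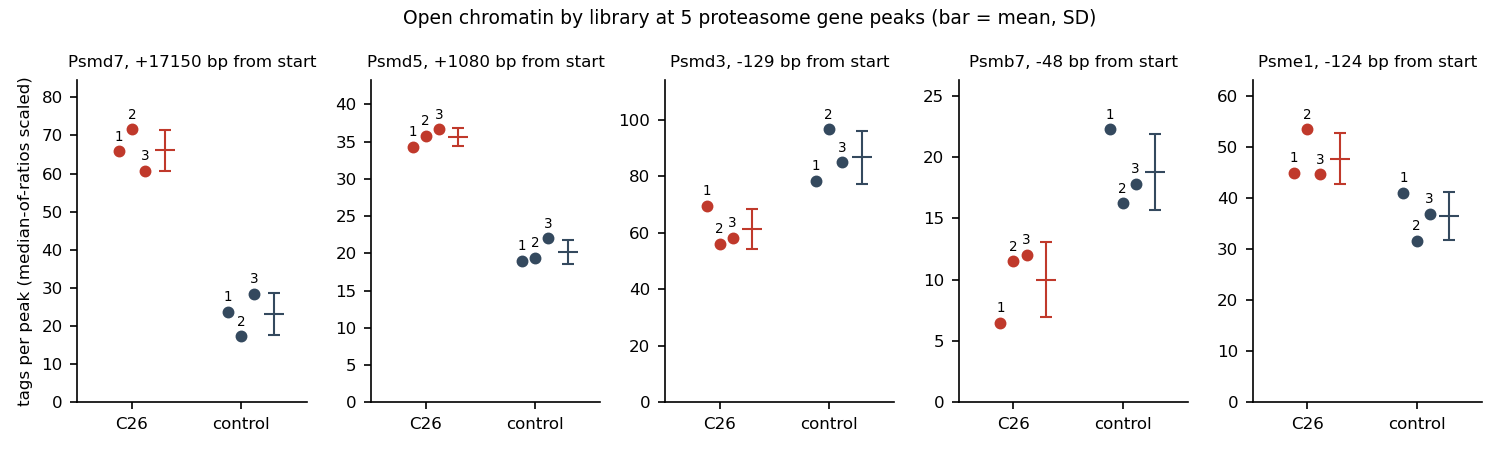
Tags per 10 M with median-of-ratios scaling (y axis) by library, C26 medium left and control medium right, for 5 member peaks named by gene and distance in bp from the start, with mean and SD. The Psmd7 peak at 17150 bp and the Psmd5 peak at 1080 bp are higher in every C26 library, the Psmd3 and Psmb7 promoter peaks are lower in every C26 library, and the Psme1 promoter peak is higher.

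Psmd5 had an intronic peak 1080 bp past its start, at chr2:34869750-34870014, with 34.3, 35.8 and 36.7 tags in C26 medium 1 to 3, against 19.04, 19.4 and 22.1 tags in control medium 1 to 3 (0.79, SE 0.17, limma adjusted p = 0.000343). It lay opposite in direction to the promoter peak of the same gene. A peak 8285 bp past the start of Psma7, inside an intron of Lsm14b at chr2:180033965-180034393, had 58.0, 51.3 and 45.3 tags in C26 libraries, against 29.9, 35.3 and 33.1 tags in control libraries (0.63, SE 0.14, limma adjusted p = 0.000341). An intronic peak of Psmc3, an ATPase of the base, 4813 bp past its start had 44.1, 44.2 and 55.8 tags in C26 libraries, against 30.4, 33.7 and 39.5 tags in control libraries (0.46, SE 0.14, limma adjusted p = 0.00999). Its direction turned with the scaling, since the deposited values gave -0.06. The groups did not overlap in any of these.

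The remaining called peaks were farther from their gene. A peak at -47033 bp from the start of Psma1, inside 4933406I18Rik, had 26.4, 35.8 and 35.7 tags in C26 medium 1 to 3, against 25.5, 19.4 and 14.9 tags in control medium 1 to 3 (0.71, SE 0.19, limma adjusted p = 0.00397). The peak at -6003 bp from the start of Psma3 was the one lower, with 48.7, 65.4 and 50.2 tags in C26 libraries, against 68.8, 83.2 and 75.2 tags in control libraries (-0.47, SE 0.12, limma adjusted p = 0.00168). Neither pair of groups overlapped. Another peak before Psma1 and one inside Slc22a23 that carries the name of Psmg4 were also higher, at 0.54 and 0.43. The annotation gives each peak the gene with the nearest start, and no measurement here ties these peaks to that gene.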

How the data were processed

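RNA and ATAC libraries, 6 of each in 4 groups of 3, were taken from the deposited tables. The authors deposited FPKM per gene, counted over exons of mm10 with HOMER on both strands with 1 transcript kept per gene, per the file headers. Reads of overlapping genes on opposite strands thus cannot be told apart. Among the 40 members with a promoter window these were Psma4, Psmc3ip, Psmd1 and Psme1. The other members, Psmd7 among them, were not checked for such overlap. The ATAC signal was deposited as tags per peak over 1 merged peak list, brought to a library of 10 M tags, as the headers of the deposited file state. The submitters' processing notes name HISAT2, Bowtie2, MACS2, HOMER and DESeq2 and the builds GRCm38 and mm10; the sources used here give no versions. No other columns of per-sample values were left unused.

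Genes averaging at least 1 FPKM and peaks averaging at least 5 tags were fitted with limma 3.58.1 (R 4.3.3) on log2(value + 1) with a trend, over all genes or peaks, with Benjamini-Hochberg adjustment at 0.05. Values were whole multiples of 1 read in 100% of those checked, within a tolerance of 0.1 of a step, so reads were recovered and run through edgeR 4.0.16 and DESeq2 1.42.0 as alternatives. Subunit ratios used an exact permutation test over the libraries, with Benjamini-Hochberg adjustment of its p-values in SciPy 1.17.1. The scripts were tested on simulated data.

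Values per library are given for the immunoproteasome genes and their partners, up to 3 members per class with the smallest limma p, up to 4 genes per pathway list, and called peaks (at most 12, smallest p first) or, as deposited, the 6 promoter peaks with the smallest p; Psma2, Psme1, Psme2, the Psmb8, Psmb10 and Psmd7 peaks not called, and the shared starts were chosen after their values were seen. Some ubiquitin genes that this rule names are not reported here. Members and lists were chosen with earlier results of these data known. Same-numbered libraries correlated at -0.09, 0.60 and -0.60 in RNA and between -0.02 and 0.01 in ATAC, so numbers were not taken as pairs.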

Additional observations from a re-analysis of the deposited data

How the results depend on the processing

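RNA calls were 0 genes in limma, 1 at a mean of at least 5 FPKM, 1 with quantile normalization, 1 with median-of-ratios scaling and 312 with DESeq2, which called 1 member. Leaving out 1 library gave 25 to 41 members above 0. The log2 ratios of Psmb8, Psmb9 and Psmb10 to their partners ranged over -0.44 to 0.12, -1.05 to 0.058 and -0.62 to 0.11. Signs turned for Canx (-0.32 to 0.017), Irf1 (-0.10 to 0.29), Psmb10 (-0.51 to 0.12), Psmb5 (-0.015 to 0.28), Psmb8 (-0.46 to 0.41), Psmb9 (-0.97 to 0.16), Psme4 (-0.11 to 0.30), Tap1 (-0.72 to 0.043) and Ubb (-0.070 to 0.87). Without PBS 1 and LLC 3, Irf1 was at -0.064, Psmb8 at -0.47 and Ubb at -0.013. Psmb7 was at -0.054 with quantile normalization and -0.0023 with DESeq2, Psmb8 at -0.075 with edgeR and -0.092 with DESeq2, and Psme4 at -0.0021 with edgeR and -0.012 with DESeq2.

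ATAC peaks called higher and lower were 428 and 704 as deposited, 133 and 338 at a mean of at least 20 tags, 6378 and 4742 with median-of-ratios scaling, then 5595 and 5426 with quantile normalization, 6571 and 4783 with edgeR, and 4839 and 2692 with DESeq2. Leaving out 1 library gave 90 to 1954 higher and 28 to 19856 lower. In the same order of the last 4 settings, member promoters called lower were 13, 13, 12 and 6, against 0 as deposited. Those are 31.7, 31.7, 29.3 and 14.6%, against 21.2, 20.2, 21.6 and 11.4% of all promoter peaks. Called higher were 1, 0, 1 and 0, against 2.51, 2.53, 2.69 and 1.49% of all promoter peaks. Above 0 were 4, 3, 5 and 4 (1 within 3000 bp), against 23.6, 22.9, 23.9 and 23.5%. Other member peaks called higher were 7, 5, 7 and 5, and lower 1, 4, 1 and 1. As deposited, leaving out 1 library gave 0 to 37 promoters lower, 0 to 1 above 0, and 0 to 1 other peaks higher and 0 to 16 lower. With median-of-ratios scaling, an alternative crossed with leaving out a library after the data were seen, it gave 0 to 1 promoters higher, 8 to 11 lower, 3 to 10 above 0 and 1 to 3 other peaks lower. Shares over all promoter and all other peaks are not given with a library left out. The constitutive beta median minus that of all promoters was -0.16, -0.071 at a mean of at least 20 tags, -0.26 with quantile normalization and -0.23 to -0.045 without 1 library (-0.23 to -0.044 when scaled). That of the activators was 0.10, with -0.041 to 0.16 (-0.047 to 0.15 when scaled). The Psmc3 peak was at -0.06 as deposited, 0.46, 0.43, 0.52 and 0.50 in those 4 settings and -0.32 to 0.13 without 1 library. The Psma7 peak at 8285 bp ranged over -0.086 to 0.33 and the Psma1 peak at -47033 bp over -0.061 to 0.65. The cause was not tested for any of these.

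With the replicate number as a block, 0 RNA genes were called and 37 members were above 0, and 415 peaks were higher and 656 lower as deposited with 0 members called. With median-of-ratios scaling and the block, 12 member promoters were lower and 1 higher. The numbers did not pair the samples. The scaled RNA sums and separations of the libraries were added after the data were seen.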
